A study of Mus musculus with 4 samples.

Results

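The genes described here are 10 inhibitors of Ras and mitogen-activated protein kinase (MAPK) signalling, Spred1, Spred2, Spry1, Spry2, Dusp2, Dusp4, Dusp5, Dusp6, Dusp10 and Rasa2, taken by symbol from a table of 37305 rows. Each of the 10 symbols stood on 1 row. The family was picked after Spred1 and Spred2 had been seen at lower levels with DKK2, so the difference between DKK2 and control is given for the members as a description, without a test. Thus the members were chosen by the FPKM values of Spred1 and Spred2 in this same contrast. The table measures RNA of primary natural killer (NK) cells, taken from spleens of C57BL/6 mice (postnatal day 56). Every group had 24 hours of culture with murine recombinant IL-15 (50 ng/ml). A further 24 hours followed in which 2 control libraries had mock treatment and 2 had DKK2 at a dose of 200 ng/ml. DKK2 is a secreted protein that binds Wnt co-receptors, and the comparison asks how NK cells respond to it. The labels do not say whether the replicates came from separate animals or cultures, so the spread between them may be technical.

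IL-15 engages a receptor that signals through JAK kinases and STAT5 and, through the adaptors Shc and Grb2 and the exchange factor Sos, through Ras, Raf, MEK and ERK. The cascade induces its own inhibitors. SPRED proteins sit at the membrane and bring the GTPase-activating protein neurofibromin to Ras, Sprouty proteins act between receptors and Raf, Rasa2 speeds the hydrolysis of GTP by Ras, and the dual-specificity phosphatases (DUSPs) remove the activating phosphates from ERK, p38 or JNK. As many of these genes are themselves switched on by ERK, their transcripts are often read as a record of pathway activity.

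The stretches upstream of the start site are shown for the 3 members above the filter (a mean over the 4 libraries of 1 FPKM or more) whose DKK2 and control values were separate, Spred1, Spred2 and Rasa2, and for Dusp5, the most abundant member. Each is 250 bases long and ends at the base before the annotated start, from RefSeq on build GRCm38.p6. Spred1 lies at chr2:117120821-117121070, plus strand, Spred2 at chr11:19924192-19924441, plus strand, Rasa2 at chr9:96631504-96631753, minus strand, and Dusp5 at chr19:53528895-53529144, plus strand. Capitals mark the GC box (GGGCGG on either strand) and, in Dusp5, the CArG box that serum response factor recognises.
Spred1: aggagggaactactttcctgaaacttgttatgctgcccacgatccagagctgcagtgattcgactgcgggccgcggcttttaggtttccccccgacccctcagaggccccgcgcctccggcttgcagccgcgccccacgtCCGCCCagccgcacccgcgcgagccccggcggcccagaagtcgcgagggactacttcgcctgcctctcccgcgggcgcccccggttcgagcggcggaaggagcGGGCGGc
Spred2: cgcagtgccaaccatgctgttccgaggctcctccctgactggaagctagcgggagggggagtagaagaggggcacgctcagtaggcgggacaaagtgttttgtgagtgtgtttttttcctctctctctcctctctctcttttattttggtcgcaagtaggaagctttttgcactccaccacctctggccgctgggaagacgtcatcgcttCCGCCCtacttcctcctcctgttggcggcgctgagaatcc
Rasa2: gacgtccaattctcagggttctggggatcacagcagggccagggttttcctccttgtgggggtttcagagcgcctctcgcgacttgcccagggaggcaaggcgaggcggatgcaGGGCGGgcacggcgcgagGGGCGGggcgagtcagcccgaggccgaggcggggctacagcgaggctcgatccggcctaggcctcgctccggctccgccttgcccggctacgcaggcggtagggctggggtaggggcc
Dusp5: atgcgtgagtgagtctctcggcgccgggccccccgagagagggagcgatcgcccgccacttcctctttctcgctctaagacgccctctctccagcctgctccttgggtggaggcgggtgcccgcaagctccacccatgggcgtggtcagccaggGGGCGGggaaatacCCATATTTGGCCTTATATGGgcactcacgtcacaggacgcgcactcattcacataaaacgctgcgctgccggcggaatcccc
The table of promoters held 9 of the 10 members, all but Dusp4. The 9 stretches were rich in G and C, with a median of 62.4% and 21 CpG dinucleotides, beside 52.4% and 6 over all 32851 promoters. A GC box stood in 7 of the 9, and in 32.7% of all promoters. Dusp5 held a pair of CArG boxes side by side, a motif found in 1.5% of all promoters. Searched on both strands, the ETS motif CCGGAAG (6.9% of all promoters), the AP-1 motif TGANTCA (6.7%), the cyclic AMP motif TGACGTCA (1.5%), the STAT motif TTCNNNGAA (7.0%) and the TCF/LEF core CTTTGA (13.8%) were in 0 of the 9. These are matches of letters within a short window only.

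Levels are in FPKM (fragments scaled to transcript length and to sequencing depth), so they can be compared between genes. Total reads are unknown. Judged by the smallest steps among low values, the other 3 libraries had 0.352 to 0.402 of the depth of control replicate 1. NK cell markers were present in every library, with lowest values between 34.5 FPKM (Tbx21) and 6115 FPKM (the granzyme gene Gzmb). The 9 NK markers summed to 15905 and 13539 FPKM in the controls and 10968 and 10014 FPKM with DKK2, and Gzmb and Prf1 had both DKK2 libraries below both controls (mean ratios of 0.606 and 0.694). In the other 7 the groups overlapped, with fitted differences above 0. Control replicate 1 had little RNA of monocyte, neutrophil, B or T cell markers. There the 10 monocyte and macrophage markers summed to 8.28 FPKM (3 of them listed at 0), against 225 in the other control and 675 and 376 in DKK2 replicates 1 and 2. The 10 neutrophil markers summed to 1.06 FPKM (5 at 0), 64.9, 3523 and 126 FPKM, listed likewise. B cell markers (8 genes) summed to 7.47, 281, 579 and 566 FPKM and T cell markers (8 genes, Cd8a and Cd8b1 at 0 in control replicate 1) to 28.7, 130, 225 and 179 FPKM. The 7 dendritic cell markers summed to 38.5, 26.5, 45.98 and 45.8 FPKM, where 6 of 7 were lowest in control replicate 1 but Itgax was highest there. Whether these cells, or the lower Gzmb and Prf1, go with the values of the members was not tested, and fewer cells of a type cannot be told apart from less RNA per cell.

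The 10 members spanned levels from near 0 to about 99 FPKM, in an order that was much the same in every library. Dusp5 led with a mean of 79.98 FPKM over the 4 libraries, followed by Dusp2 (65.6), Spry2 (43.2), Dusp6 (23.6), Rasa2 (18.6), Spred1 (11.1), Spred2 (7.95), Dusp10 (3.27), Dusp4 (0.505) and Spry1 (0.0348). Among neighbours in this order, Dusp6 and Rasa2 changed places, with Dusp6 the higher in 2 of 4 libraries. For every other pair of neighbours the first was higher in 4 of 4 libraries, although the ranges overlapped down to the pair Spred1 and Spred2. The ranges were separate between Spred2 and Dusp10, between Dusp10 and Dusp4, and between Dusp4 and Spry1.

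**Figure D1:**
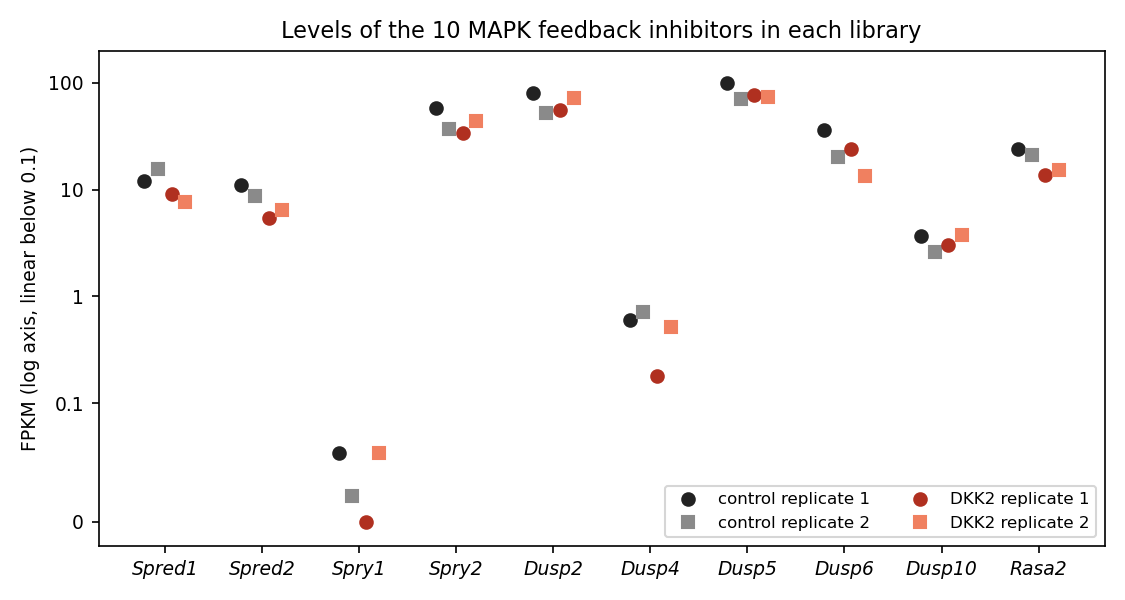
FPKM of the 10 members (log axis, linear below 0.1) in each library, control in black and grey and DKK2 in red and orange, with replicate 1 as circles and replicate 2 as squares. The DKK2 points lie below both control points for Spred1, Spred2, Rasa2 and Dusp4, and are mixed with them for the other 6.

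Spred1 and Spred2 were the genes from which the family was picked, so their lower levels are the starting point and not a finding. Spred1 was at 12.0 and 15.6 FPKM in control replicates 1 and 2 and at 9.02 and 7.65 FPKM in DKK2 replicates 1 and 2. Spred2 was at 11.1 and 8.74 FPKM in control cells and at 5.44 and 6.52 FPKM with DKK2. For both genes the groups did not overlap, and the mean with DKK2 was 0.603 of the control mean. The log2 difference of (FPKM + 1), DKK2 minus control, was -0.66 ± 0.27 (standard error of limma's fit over all genes, n = 2 per group) for Spred1 and -0.64 ± 0.28 for Spred2.

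Within the controls Spred1 was the lower and Spred2 the higher in replicate 1, and the opposite held in replicate 2. Summed over the SPRED genes, with Spred3 at 0.117 FPKM or less, the controls were at 23.2 and 24.4 FPKM and the DKK2 libraries at 14.5 and 14.3 FPKM. This sum consists of the values that picked the family, and opposite deviations of the pair cancel in it. Spred1 made up 52.0% and 63.8% of the sum in the controls and 62.1% and 53.5% with DKK2, ranges that overlap.

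Rasa2 showed a like separation. It was at 24.3 and 20.96 FPKM in control cells and at 13.6 and 15.4 FPKM with DKK2, with no overlap and a mean ratio of 0.641 (log2 difference -0.61 ± 0.25). Of 6 other Ras GTPase-activating proteins tested, 2 were lower and 4 higher with DKK2, beside 56.4% and 43.6% of all genes tested, and 0 of the 6 had separate groups, which 14.8% (DKK2 lower) and 11.8% (DKK2 higher) of all genes had. Rasal3, the most abundant of them, was at 156 and 113 FPKM in control cells and 149 and 198 FPKM with DKK2. Neurofibromin (Nf1), the partner of SPRED proteins, was at 3.79 and 4.83 FPKM in control cells and 2.35 and 5.81 FPKM with DKK2. The 10 genes of this class summed to 300 and 257 FPKM in the controls and to 308 and 371 FPKM with DKK2. Rasa2 made up 8.09% and 8.17% of that sum in the controls, and 4.42% and 4.15% with DKK2. Its share thus also carries the larger sum with DKK2. Whether Rasa2 differed from its relatives in this was not tested.

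Sprouty transcripts were almost all Spry2, which supplied 89.4% to 94.7% of the summed FPKM of Spry1, Spry2 and Spry4. Spry2 was at 58.3 and 36.96 FPKM in control cells and at 33.96 and 43.8 FPKM with DKK2. DKK2 replicate 2 lay between the controls, so the groups overlapped, and the log2 difference was -0.26 ± 0.33. Spry1 was barely detected, at 0.0585 and 0.0222 FPKM in control cells and at 0 and 0.0584 FPKM with DKK2. From the steps of low values these stand for about 8, 1, 0 and 3 fragments, so no difference could be seen at this depth. Spry4, a Sprouty gene outside the 10, was at 6.09 and 4.37 FPKM in control cells and at 2.93 and 2.4 FPKM with DKK2. Its groups were separate, with a log2 difference of -0.75 ± 0.32 that did not pass limma (adjusted p = 1).

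The 5 phosphatase members ranged from the highest level of the 10 (Dusp5) to one below the filter (Dusp4). Dusp5, a nuclear phosphatase of ERK, was at 99.1 FPKM in control replicate 1 and at 70.5, 76.9 and 73.4 FPKM in control replicate 2 and DKK2 replicates 1 and 2. Only control replicate 1 stood apart, and the log2 difference was -0.15 ± 0.28. Dusp2, a nuclear phosphatase known from activated lymphocytes, was at 80.7 and 52.6 FPKM in control cells and at 56.2 and 72.9 FPKM with DKK2. Both DKK2 values lay between the controls, and the log2 difference of -0.03 ± 0.33 became 0.01 when each library was centred on its median ratio and 0.03 after quantile normalization.

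Dusp6, the cytoplasmic phosphatase specific for ERK, was at 36.5 and 20.3 FPKM in control cells and at 23.9 and 13.5 FPKM with DKK2. DKK2 replicate 2 was the lowest, yet DKK2 replicate 1 exceeded control replicate 2, so the groups overlapped, and the log2 difference was -0.57 ± 0.43. Dusp10, which prefers p38 and JNK, was at 3.66 and 2.62 FPKM against 3.03 and 3.79 FPKM (0.10 ± 0.32), with the groups mixed. Dusp4, another nuclear phosphatase, fell below the filter of a mean of 1 FPKM, at 0.603 and 0.72 FPKM in control cells and 0.179 and 0.517 FPKM with DKK2. Its groups did not overlap, but the values stand for only about 90, 38, 11 and 31 fragments.

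Over the 10 MAP kinase phosphatases of the mouse (the 5 members with Dusp1, Dusp7, Dusp8, Dusp9 and Dusp16), Dusp5 and Dusp2 together held 74.3% and 73.3% of the summed FPKM in control cells and 75.7% and 78.6% with DKK2. Dusp6 held 15.1% and 12.1% in the controls, and 13.6% and 7.27% in DKK2 replicates 1 and 2. The sum was 242 and 168 FPKM in control cells and 176 and 186 FPKM with DKK2, so both DKK2 libraries lay between the controls.

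**Figure D2:**
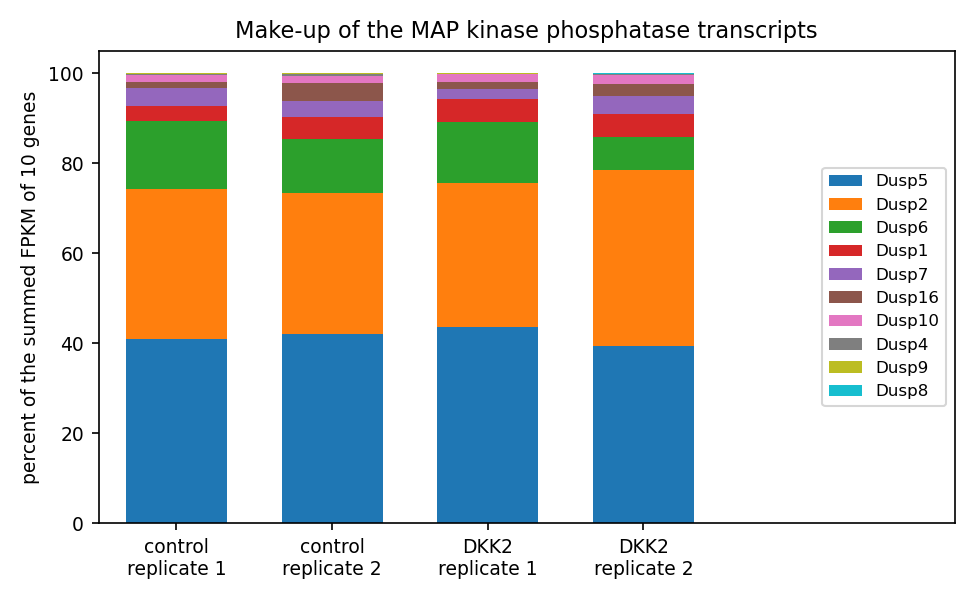
Share of each of the 10 MAP kinase phosphatase genes in their summed FPKM, in percent, 1 stacked bar per library. Dusp5 and Dusp2 fill 73.3% to 78.6% of every bar, and Dusp6 is smallest in DKK2 replicate 2 (7.27%).

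Of the 10 members, 8 reached a mean of 1 FPKM over the 4 libraries and entered the fit, and Spry1 and Dusp4 did not. The DKK2 values were both under the control values in 3 of these 8, where 14.8% of the 12275 genes tested showed this, and both over them in 0 of the 8, beside 11.8% of all genes. Of the 3, Spred1 and Spred2 were chosen for it, and nothing is read from the count. The fitted difference was below 0 in 7 of 8, beside 56.4% of all genes, and above 0 in 1, beside 43.6%. The median was -0.42, beside -0.05 over all genes. The count of lower members and this median include Spred1 and Spred2, whose values picked the family. Nothing is read from them either.

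**Figure D3:**
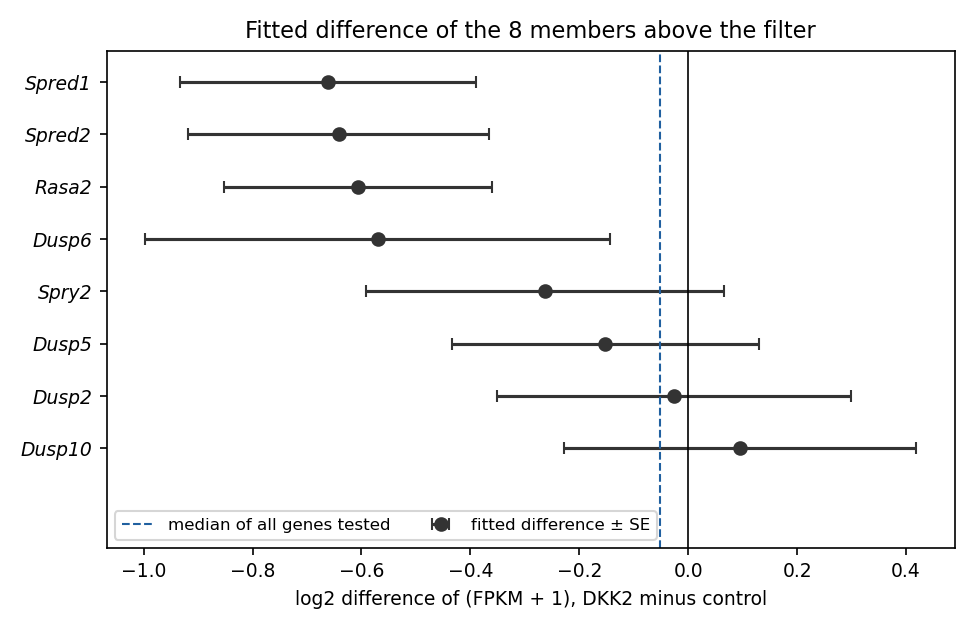
Fitted log2 difference of (FPKM + 1), DKK2 minus control, for the 8 members above the filter, with bars of 1 standard error from limma's fit (n = 2 libraries per group). The points run from -0.66 (Spred1) to 0.10 (Dusp10), and the dashed line marks the median of all genes tested (-0.05).

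Several of these differences changed sign or size with 1 library. Without control replicate 1, 4 of the 8 members were lower with DKK2, and their median was -0.05. Spred1 (-0.83), Spred2 (-0.49), Rasa2 (-0.50) and Dusp6 (-0.16) stayed lower, whereas Dusp2 (0.28), Dusp10 (0.28), Dusp5 (0.09) and Spry2 (0.06) were above 0. For Dusp6 the difference was also small without DKK2 replicate 2 (-0.18), and without DKK2 replicate 1 or control replicate 2 it was -0.96 and -0.98. Rasa2 lay between -0.71 and -0.50 whichever library was left out. The controls themselves differed (control replicate 2 minus replicate 1) by -0.82 for Dusp6, -0.64 for Spry2, -0.61 for Dusp2, -0.49 for Dusp5, -0.36 for Dusp10 and -0.20 for Rasa2, beside a median of -0.08 over all genes.

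**Figure D4:**
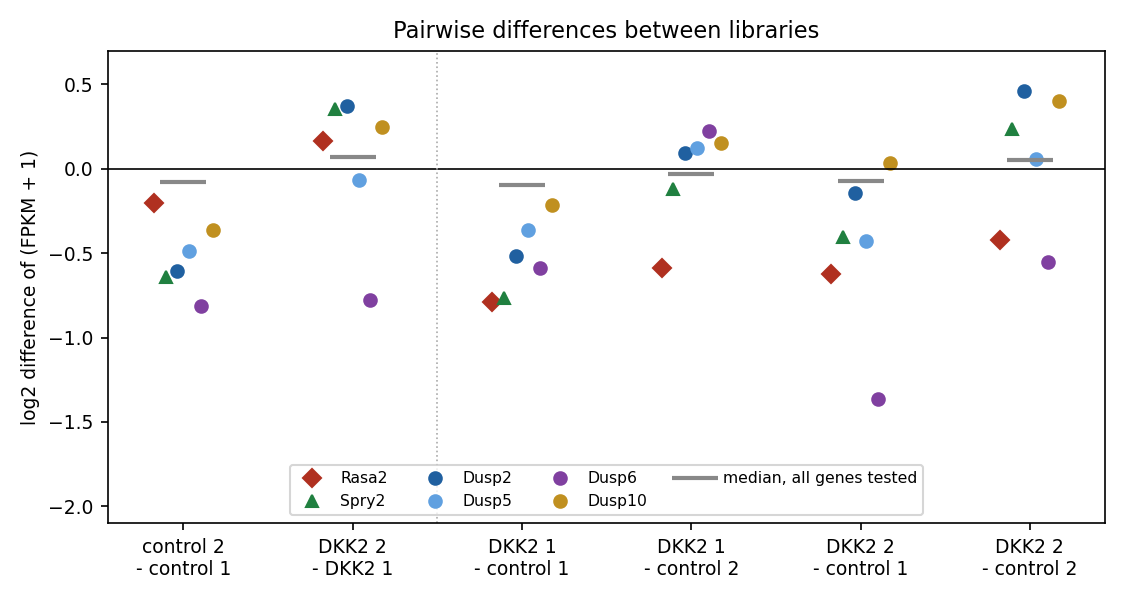
Log2 difference of (FPKM + 1) between pairs of libraries, with replicate pairs left of the dotted line and DKK2 minus control pairs right of it, for the 6 members above the filter other than Spred1 and Spred2, and the median of all genes tested (grey bars). Rasa2 lies below 0 in each of the 4 DKK2 minus control pairs (-0.79 to -0.42), whereas Spry2, Dusp2, Dusp5, Dusp6 and Dusp10 each have points on both sides of 0.

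RNA levels around the cascade that these genes restrain were read from lists of other genes, chosen with earlier results of these data known. Activity of the cascade was not measured. Of 72 genes tested over the 7 lists, 0 passed limma in either direction after Benjamini-Hochberg adjustment, beside 0.0326% of all genes (4 of 12275), and 0 had an unadjusted p under 0.05, beside 1.84%. In the Ras-ERK cascade 20 of 26 genes were lower and 6 higher (median -0.15), beside 56.4% and 43.6% of all genes. DKK2 was the lower of separate groups in 4 and the higher in 2 of the 26, beside 14.8% and 11.8% of all genes. Rps6ka3, a kinase activated by ERK, was at 110 and 81.5 FPKM against 68.8 and 70.2 FPKM (-0.44 ± 0.27). Ptpn11, the phosphatase SHP2 that promotes Ras activation, was at 31.5 and 27.7 FPKM in controls and 18.6 and 27.1 FPKM with DKK2 (-0.38 ± 0.29). The adaptor gene Gab3 went the other way, at 13.6 and 14.4 FPKM against 17.96 and 17.9 FPKM (0.34 ± 0.23). Braf, named after its values were seen, was at 86.9 FPKM in control replicate 2, whereas the other 3 libraries ranged from 5.23 to 5.65 FPKM.

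Of 15 tested genes that ERK signalling is known to induce, 12 were lower and 3 higher (median -0.50), beside 56.4% and 43.6% of all genes. DKK2 was the lower of separate groups in 4 of the 15 and the higher in 0, beside 14.8% and 11.8% of all genes. Fosl1, an AP-1 subunit, was at 2.41 and 1.99 FPKM in control cells and at 0.501 and 0.937 FPKM with DKK2 (-0.91 ± 0.38). The ETS factors Etv5 and Etv4 had the same order of groups. Etv5 was at 3.24 and 1.71 FPKM in controls and 0.439 and 1.17 FPKM with DKK2 (-0.94 ± 0.45), and Etv4 at 1.76 and 1.24 FPKM against 0.483 and 1.09 FPKM (-0.50 ± 0.41). Phlda1 was at 3.21 and 2.31 FPKM against 1.58 and 1.22 FPKM (-0.64 ± 0.35). All 4 were low transcripts, and none passed limma (adjusted p = 1 for each). Of the early growth response genes, named after their values were seen, Egr2 and Egr3 were instead set apart by control replicate 1. Egr2 was at 26.9 FPKM there and at 3.001, 4.82 and 5.43 FPKM in control replicate 2 and the DKK2 libraries. Egr3 was at 16.7 FPKM there and at 1.51, 1.75 and 6.13 FPKM in the same libraries. Egr1 was at 34.9 and 12.6 FPKM in control replicates 1 and 2, with both DKK2 libraries between them at 22.7 FPKM. Without control replicate 1 the median of the list was -0.04, and without DKK2 replicate 1 it was -0.05.

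**Figure D5:**
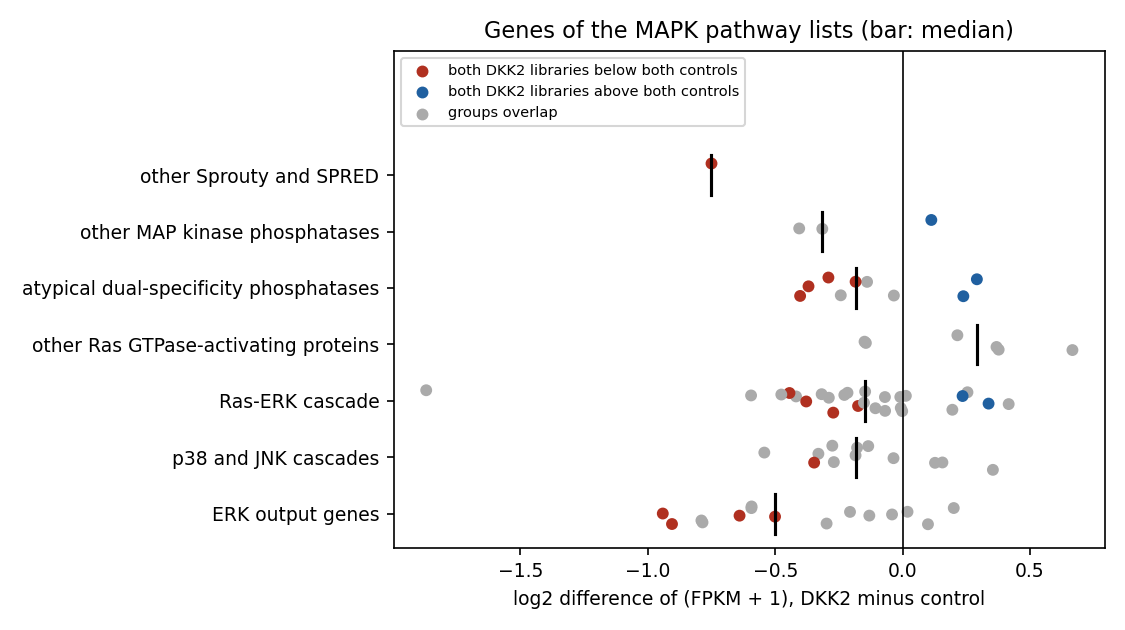
Fitted log2 difference of (FPKM + 1), DKK2 minus control, for each gene tested in the 7 pathway lists, coloured by whether the groups were separate, with a bar at each list's median. The ERK output genes have a median of -0.50, and the leftmost point of the Ras-ERK cascade is Braf (-1.87), whose groups overlap.

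The remaining phosphatase lists were mixed. Of 3 further MAP kinase phosphatases tested, Dusp7 and Dusp16 were lower and Dusp1 higher (median -0.32), where 56.4% of all genes were lower and 43.6% higher. This median was 0.02 without DKK2 replicate 1 and 0.06 without control replicate 2. Dusp1 was at 8.35 and 8.27 FPKM in control cells and 8.87 and 9.28 FPKM with DKK2 (0.11 ± 0.24). Among 9 atypical DUSPs, small phosphatases that lack the MAPK-docking domain, 7 were lower and 2 higher (median -0.18), beside 56.4% and 43.6% of all genes. DKK2 was the lower of separate groups in 4 of the 9 and the higher in 2, beside 14.8% and 11.8% of all genes. Dusp11, which acts on RNA ends, was at 62.3 and 75.3 FPKM against 60.1 and 44.3 FPKM (-0.40 ± 0.28). Dusp18 was at 1.91 and 1.43 FPKM against 0.866 and 1.27 FPKM, while Dusp19 was at 12.5 and 10.1 FPKM against 9.69 and 8.31 FPKM. Dusp23 was higher, at 1.65 and 1.89 FPKM against 2.75 and 2.06 FPKM. In the p38 and JNK cascades 9 of 12 genes were lower and 3 higher (median -0.18), beside 56.4% and 43.6% of all genes. DKK2 was the lower of separate groups in 1 of the 12 and the higher in 0, beside 14.8% and 11.8% of all genes. That gene was the kinase gene Map2k4, at 36.3 and 38.2 FPKM against 28.7 and 29.4 FPKM (-0.35 ± 0.23).

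The genes most like the SPRED pair were sought by the distance of their centred log2 profile over the 4 libraries from the mean profile of Spred1 and Spred2, among 9068 other genes whose mean reached 5 FPKM. The nearest were Gm15359 (distance 0.037), Kpna4 (0.095), Pggt1b (0.122), Lmbrd2 (0.125) and Scd2 (0.125). Kpna4, an importin that carries proteins into the nucleus, was at 77.5 and 73.5 FPKM in control cells and at 50.0 and 47.1 FPKM with DKK2. Scd2, a fatty acid desaturase, was at 120 and 115 FPKM against 78.2 and 70.1 FPKM. Rasa2 stood at rank 35 (distance 0.198). Dusp5, Spry2, Dusp2 and Dusp6 stood far down, at ranks 2318, 2812, 4870 and 4921. The mean profile consists of the values that picked the family, and opposite deviations of Spred1 and Spred2 cancel in it. A gene near it therefore has separate groups and replicates close together, which is flatter than either SPRED gene. With 4 libraries, many genes share such a profile, and the likeness is a description only.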

How the data were processed

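The authors deposited a single table of FPKM values with 4 value columns, per the file headers, although the file is named for RPKM. Each column name gave its sample. Build mm9 and the tools TopHat2 2.1.0, Cuffdiff 2.1.0, CASAVA and edgeR appear in the submitters' processing notes, without roles. The annotation, the use of strand and the treatment of multiply mapped fragments are not given in the sources used here. Libraries were made with a stranded total RNA kit, per the labels' protocols.

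FPKM are not counts, so values were taken as log2(FPKM + 1). The 12275 rows whose mean over the 4 libraries reached 1 FPKM were tested by limma 3.58.1 under R 4.3.3 (trended eBayes, two-sided, Benjamini-Hochberg adjustment over all rows tested, threshold 0.05). The script was tested on simulated data with planted changes larger than those of any member, so differences of the members' size were not covered. Fold changes on this scale understate the change of low genes. With 2 libraries against 2, an exact permutation test cannot go below p = 0.333. The members and gene lists were chosen with earlier results of these data known. Named besides the members were up to 4 genes per list with separate groups and the largest difference, and the 5 genes nearest the SPRED profile. A gene that this rule names in the Ras-ERK list is not reported here. Of 155 list genes, 154 had a row (Hras and Adgre1 under older symbols). Relative depth was read from ratios of values under 0.3 FPKM. Fragment numbers used transcript lengths of GENCODE M21 and are approximate. Promoters were matched by symbol to RefSeq on GRCm38.p6, and no coordinate was carried between builds. Read depth is unknown, so no counting interval is given. The 13 alternatives tried were other pseudocounts, filters, scalings, variance and row choices, a replicate block, and leaving out each library.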

Additional observations from a re-analysis of the deposited data

How the results depend on the processing

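The number of genes called by limma depended on the settings. Against 4 of 12275, it was 0 with no filter on low values (949 at an unadjusted p under 0.05) and 0 without any one of the 4 libraries (150 to 855 at an unadjusted p under 0.05), where the lone library of a group is assumed to vary like the others. The replicate number as a block gave 8 genes called. The deviations of same-numbered libraries had r = 0.012 across genes. This cannot show whether same-numbered libraries shared an animal, culture or batch, which the labels do not say. In this balanced design the block cannot change a fitted difference, so it says nothing on the direction of the members. The median of the members (-0.42) lay between -0.54 and -0.052 when 1 library was left out, being -0.052 without control replicate 1. The number of members lower with DKK2 lay between 4 (without control replicate 1) and 8 of 8. With no filter on low values it was 9 of 10. The number with every DKK2 library below every control lay between 3 and 7 (7 without control replicate 2, beside 37.5% of all genes). The cause was not tested. Spred1, Spred2, Rasa2 and Dusp6 stayed below 0 under all 13 alternatives, within -0.83 to -0.49, -0.80 to -0.44, -0.71 to -0.50 and -0.98 to -0.16. The filters and the variance and row choices leave these differences as they are. For Spred1, Spred2 and Rasa2, whose groups are separate, leaving out a library or changing the pseudocount cannot change the sign. Their constant sign is thus largely fixed in advance. Dusp2 was above 0 under 4 of 13, Dusp5 and Spry2 under 1 of 13, and Dusp10 below 0 under 2 of the 12 that kept it. No gene of the pathway lists passed limma under any of the 13. Spry1 and Dusp4 rest on few fragments.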
